A study of Mus musculus with 15 samples.

Results

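The genes described here encode voltage-gated sodium channels, voltage-gated calcium channels with their auxiliary subunits, hyperpolarization-activated HCN channels, TRPC, TRPM and TRPV channels, the sodium leak channel NALCN, and the ryanodine and inositol trisphosphate (IP3) receptors that release calcium from internal stores. They were chosen by gene symbol: Cacna, Cacnb, Cacng, Trpc, Trpm, Trpv or Ryr at its start, Hcn, Scn or Itpr followed by a digit, or Nalcn itself. Of the 24419 genes in the table, 74 matched, and 61 of them had a mean of at least 1 CPM (read counts scaled to the library total) over the 15 libraries. The 13 left out ended with Trpm6, whose mean of 0.89 CPM lay just under the limit, and the lowest genes kept were Scn11a (1.26 CPM) and Cacna1f (1.55 CPM). Of the 61, 60 fall into 15 channel families, and Trpc4ap, kept by its prefix, encodes a protein that binds TRPC4 and is not a channel. All 61 passed the filter on low counts, and the smallest count of any of them in any library was 20.

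RNA sequencing was done on punches of the suprachiasmatic nuclei (SCN), the hypothalamic pacemaker of the circadian clock, from C57BL/6 mice aged 8 to 12 weeks. The genotype labels are control and REV-ERBS DKO, a double knockout of REV-ERB alpha and REV-ERB beta, the repressor nuclear receptors of the clock encoded by Nr1d1 and Nr1d2. Tissue was taken at circadian time (CT) 4 or 16 h, in the subjective day or night. Control mice gave 3 libraries at CT4 and 5 at CT16, and DKO mice 3 and 4, each library a pool of 2 to 4 punches. The labels used here name no Cre driver, promoter or tissue restriction for the deletion and do not say which mice entered a pool, and p-values therefore reflect how much pools differ.

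SCN neurons fire fast in the subjective day and slowly at night. Sodium leak through NALCN and persistent sodium current depolarize the cell, L-type calcium channels add subthreshold oscillations and calcium entry, and HCN and T-type channels shape the return from hyperpolarization. TRPC channels, ryanodine receptors and IP3 receptors tie firing and receptor signals to intracellular calcium, which itself cycles over the day in these cells.

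Total counts ran from 32580803 to 68757624 per library. The channel genes together took 0.512% to 0.628% of a library's counts. Neuronal and SCN markers were detected in every library: the 11 SCN markers summed to 481 to 1009 CPM, with none at 0. Marker levels were not alike between libraries, however, and whether the tissue taken differed was not tested. A score over the SCN markers (mean log2 CPM, centred on 0 over the libraries) was -0.49 to -0.46 in the 3 DKO CT4 libraries and -0.07, 0.52 and 0.55 in those of control CT4, with no overlap. The median log2 difference of these 11 markers at CT4, DKO against control, was -0.92, while their summed CPM overlapped, at 716 to 757 CPM in DKO and 753 to 1009 CPM in control. At CT16 the SCN score was -0.46 to 0.40 in DKO and -0.14 to 0.33 in control. A score over 13 markers of neighbouring hypothalamic nuclei, made in the same way, was 0.68 to 1.11 in the 3 DKO CT4 libraries and 0.73 in control CT4 replicate 1, against -0.71 and -0.28 in the other two control CT4 libraries. Among DKO CT16 libraries it was 1.06 in replicate 3 and -1.16 to -0.87 in the others. The summed CPM of these 13 markers ranked the libraries otherwise. Control CT16 replicate 4 was highest, at 1072 CPM with a score of -0.31, and control CT16 replicate 1 had 870 CPM with -0.83. DKO CT16 replicate 3 had 841 CPM. At CT4 the sums were 901 to 961 CPM in DKO and 492 to 869 CPM in control. The myelin score was highest in DKO CT16 replicate 4, at 1.61. Results that rest on these libraries are given with and without control CT4 replicate 1 and DKO CT16 replicates 3 and 4. Leaving them out sets the neighbouring nuclei scores further apart. Control CT4 then stands at -0.71 and -0.28, below all 3 DKO CT4 libraries (0.68 to 1.11). DKO CT16 then stands at -1.15 and -1.16, below all 5 control CT16 libraries (-0.83 to 0.46). In that setting the genotype differences at CT4 and CT16 cannot be told apart from differences in this score, here and below. The same holds there for the DKO time and interaction differences. Counts of Nr1d1 and Nr1d2 do not check the genotype: they differed in DKO by -0.02 ± 0.14 and 0.47 ± 0.09 at CT4 and by 1.15 ± 0.12 and 1.07 ± 0.07 at CT16 (log2 fold change ± SE, as everywhere below unless another unit is given).

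Levels were compared between genes only after scaling by exonic length, as counts per kilobase scaled to a fixed total as TPM are. On that scale 10 genes had a mean above 100 and 10 had one below 5. Among the highest were Cacng7 (227), an AMPA receptor auxiliary subunit, Trpc4ap (214), and the sodium channel beta subunit gene Scn2b (185). The lowest were Scn11a (0.635), Cacna1f (0.754) and Cacna1s (1.84). The plot of length-scaled levels shows both abundant and scarce members in many families, while Cacna1a, Cacna1b and Cacna1e lay close together (68.7 to 83.2).

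**Figure D1:**
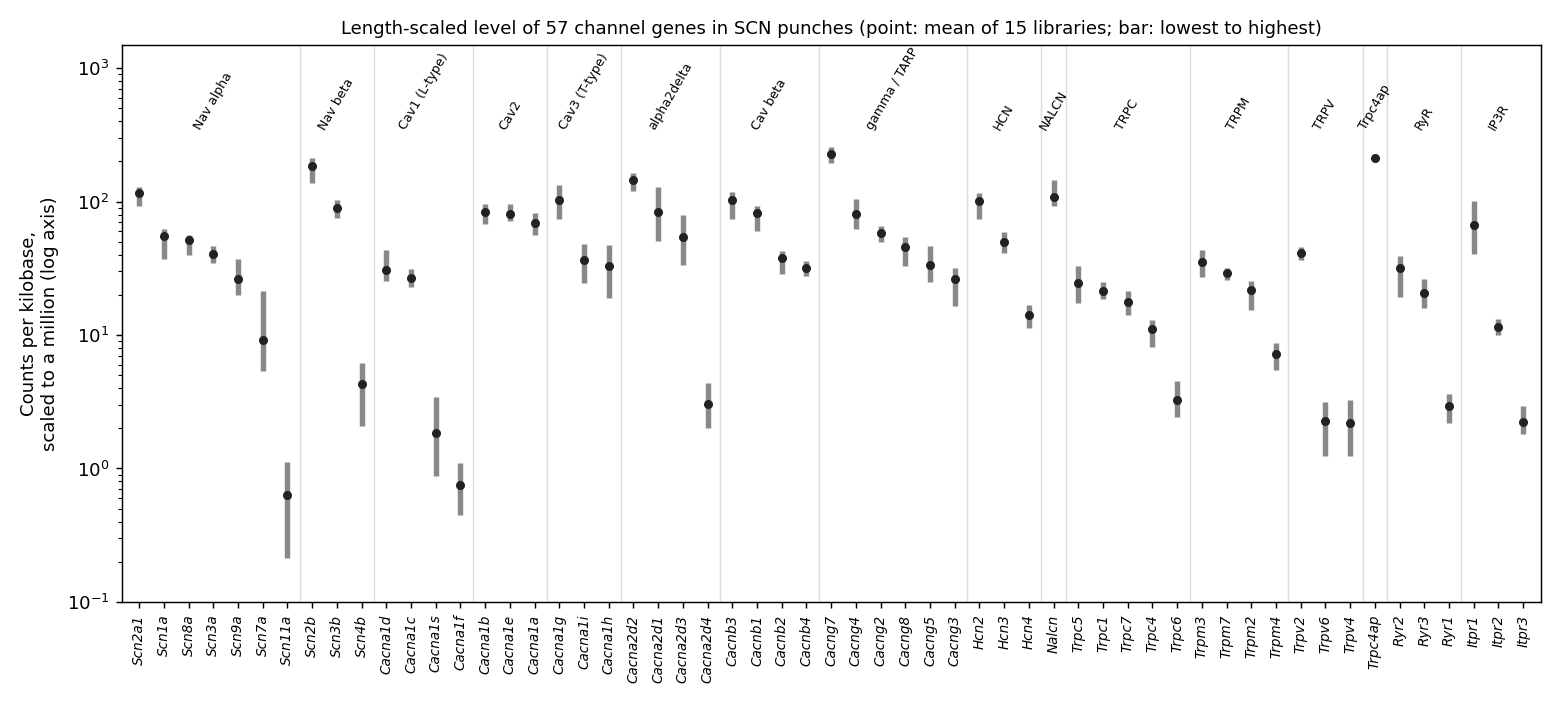
Length-scaled level of 57 of the 61 genes, as counts per kilobase scaled as TPM, on a log axis, grouped by family. Points are means of the 15 libraries and bars run from the lowest to the highest library; Cacng7 stands highest at 227 and Scn11a lowest at 0.635.

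Across the study, 13 of the 61 genes passed the test in at least 1 of 4 comparisons between groups, 9 in a genotype comparison and 5 in a time comparison, with Trpm3 in both kinds. In DKO at CT4, Cacna1s rose and Cacna1d and Cacna1i fell, which is 3 of 61 against 1.28% of all 16910 tested genes (1 higher, background 0.574%, and 2 lower, 0.710%). At CT16, Cacna1s, Trpm3 and Trpm7 rose and Cacng4, Hcn3, Trpc4, Cacna1i and Cacnb1 fell, 8 of 61 against 4.66% of all tested genes (3 higher, 2.83%, and 5 lower, 1.83%). Cacna1s and Cacna1i passed at both times, in the same direction. Between CT4 and CT16 in control, Trpc7 rose and Cacna2d3, Trpm3 and Cacna1e fell (4 of 61, background 4.21%; 1 higher, 2.13%, and 3 lower, 2.08%), and in DKO only Cacna1c passed, higher at CT16 (1 of 61, background 1.80%, and 1.29% for higher). In bulk tissue, fewer cells of a type and less RNA per cell cannot be told apart, and this holds for each difference below.

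**Figure D2:**
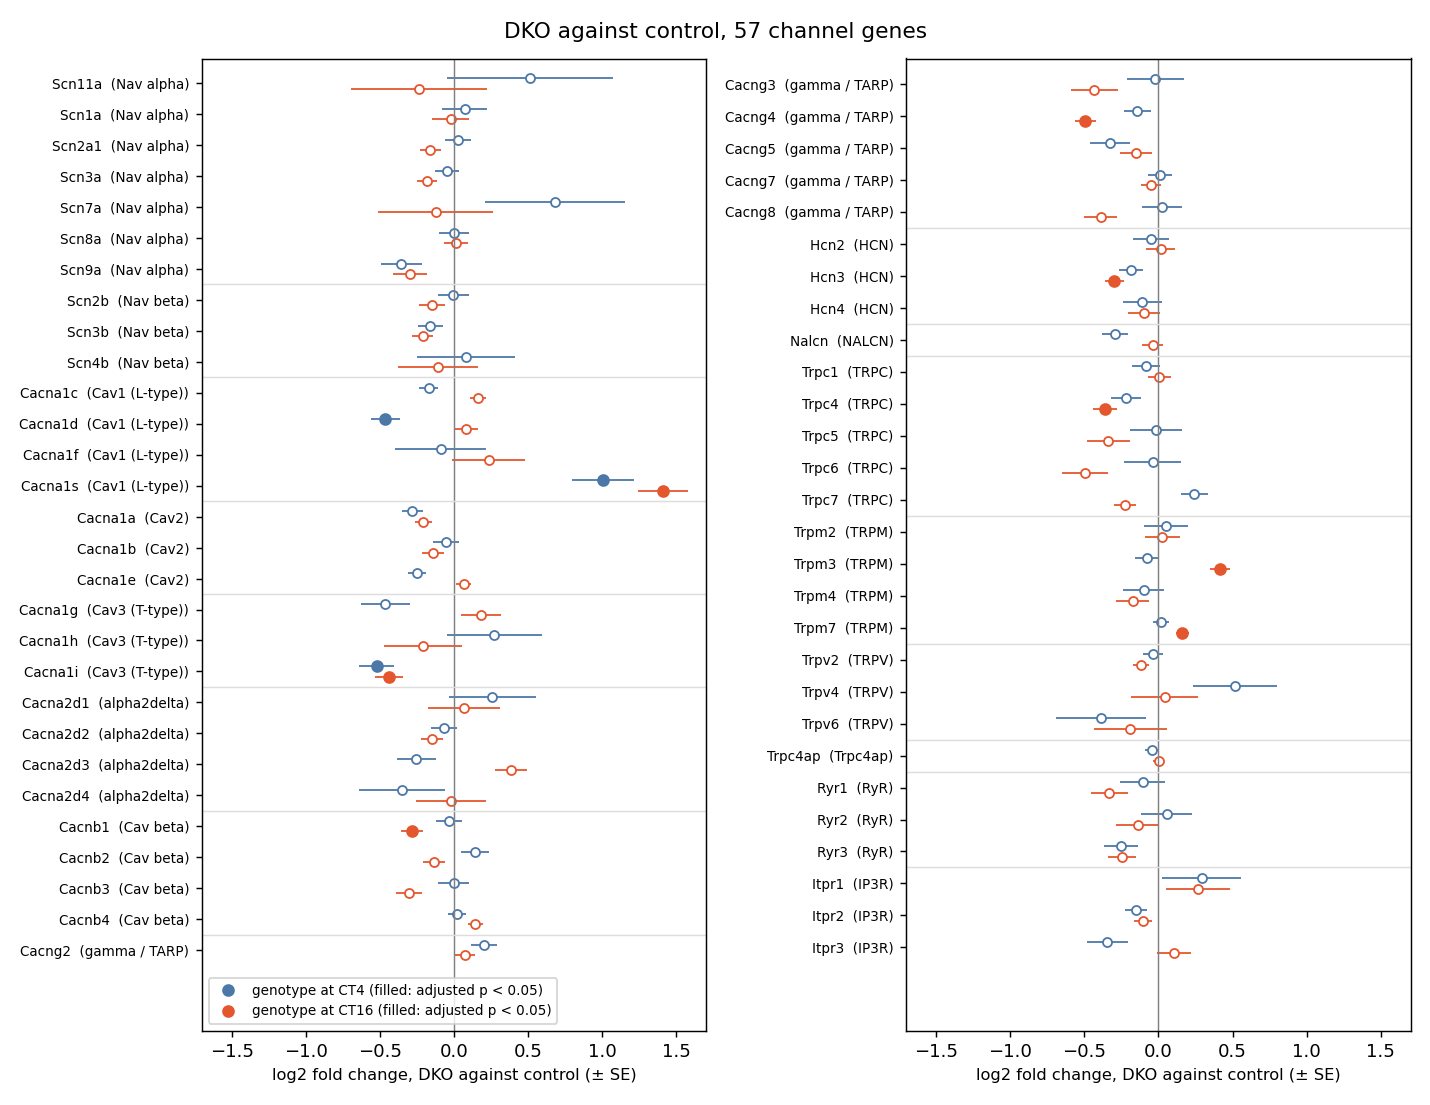
Log2 fold change of DKO against control (x axis, ± SE) for 57 of the 61 genes, at CT4 and at CT16, ordered by family; filled points have an adjusted p under 0.05. Cacna1s lies farthest right, at 1.00 and 1.41, and most other points lie within 0.5 of 0.

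Most genotype differences were small and leaned downward. The median over the 61 genes was -0.05 at CT4 and -0.12 at CT16, where the medians of all tested genes were -0.00 and 0.00. At each time 40 of the 61 lay below 0, and 27 lay below 0 at both. The median genotype difference of the 8 neuronal markers was 0.14 at CT4 and -0.13 at CT16. For the 10 myelin markers it was 0.01 and 0.72. The part of cell types in the lean of the channel genes was not tested. Cacna1s was the only 1 of the 61 with a difference of at least 2-fold in any of the 4 comparisons between groups. The libraries of the 2 genotypes did not overlap for 21 genes at CT4, 6 higher and 15 lower in DKO, which is 34.4% against 25.4% of all tested genes (higher 12.1%, lower 13.3%). At CT16, with more libraries, this held for 7 genes (3 higher, 4 lower; background 6.97%, of which 4.03% higher and 2.94% lower). The CT4 differences, here and for each gene below, run beside several marker scores. The SCN score was lower in all 3 DKO CT4 libraries (-0.49 to -0.46) than in any control CT4 library (-0.07 to 0.55), and its part in them was not tested. The neuronal score was higher in DKO CT4, at -0.010 to 0.087 against -0.090 to -0.087 in control CT4, with no overlap. The astrocyte score was lower in DKO CT4 (-0.003 to 0.026 against 0.078 to 0.204). So was the vascular score (0.115 to 0.181 against 0.245 to 0.416), both without overlap. The part of these scores in the CT4 differences was not tested either. The neighbouring nuclei score was 0.68 to 1.11 in DKO CT4 and -0.71 to 0.73 in control CT4, which overlap. With the myelin and neighbouring nuclei scores as covariates, Cacna1d and Cacna1i still passed at CT4, Cacna1s did not, and Cacna1e passed as well.

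The L-type calcium channel alpha1 subunits included the largest genotype difference of the 61 and moved in both directions. Cacna1d (51.2% of the length-scaled family total) and Cacna1c (44.5%) are the main neuronal forms, which carry dihydropyridine-sensitive calcium current and couple it to gene expression. Cacna1s, known as the voltage sensor of skeletal muscle, made up 1.89% of the family total in control CT4 and 4.61% in DKO CT4. At CT16 its share was 1.86% in control and 4.40% in DKO. Cacna1f, best known from photoreceptors, held 1.26% over all libraries.

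Cacna1s (chromosome 1, 136052901 to 136119822, plus strand, mm10) read 3.07, 2.51 and 2.23 CPM in the 3 control CT4 libraries and 4.16, 5.65 and 5.93 CPM in the 3 DKO CT4 libraries. At CT16 it read 1.86, 1.87, 2.82, 2.05 and 2.55 CPM in control and 5.07, 5.24, 6.06 and 7.36 CPM in DKO. Every DKO library lay above every control library, at both times. The rise was 1.00 ± 0.21 at CT4 (edgeR quasi-likelihood test, adjusted p = 0.0316) and 1.41 ± 0.17 at CT16 (adjusted p = 0.000101). The CT16 call was kept in all 23 alternatives, at 1.21 to 1.51. The CT4 call was lost on leaving out control CT4 replicate 2 or 3 or DKO CT4 replicate 2 or 3 (adjusted p = 0.109 to 0.151), and with myelin and neighbouring nuclei scores as covariates (0.87 ± 0.23, adjusted p = 0.0625). The counts behind these values are low, 60 to 148 in control and 164 to 420 in DKO libraries. The time differences did not pass, at -0.23 ± 0.19 in control and 0.18 ± 0.19 in DKO.

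The promoter window of Cacna1s is shown because this gene had the largest genotype difference of the 61. It runs from 250 bases before to 50 after the RefSeq start (GRCm38.p6, chr1:136052561-136052860, plus strand). The gene as counted starts at 136052901, past the end of this window, so the 2 starts differ. The letters searched were the E-box CACGTG, to which clock activators bind, the D-box TTATGTAA or TTATGCAA, and TAGGTCA, the core to which ROR and REV-ERB receptors bind, each on both strands. None of these motifs occurs in it, so all letters are in lower case.
Cacna1s: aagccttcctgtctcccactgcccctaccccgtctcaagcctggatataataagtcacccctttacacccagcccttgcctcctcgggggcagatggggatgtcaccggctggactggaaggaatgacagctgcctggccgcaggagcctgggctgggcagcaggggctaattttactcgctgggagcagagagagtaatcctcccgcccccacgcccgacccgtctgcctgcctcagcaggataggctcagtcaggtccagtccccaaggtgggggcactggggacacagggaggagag
Of the 61 genes, 45 had at least 1 such window (58 windows). CACGTG occurred in those of Itpr3 and Trpm7, where 7.15% of all 32851 windows hold it. The D-box and TAGGTCA each occurred in 1 gene, Scn1a, against 1.66% and 2.61% of all windows.

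Cacna1d (chromosome 14, 30039941 to 30491156, minus strand) was lower in DKO at CT4. It read 99.7, 133 and 114 CPM in control and 85, 86 and 80.4 CPM in DKO, groups that did not overlap. It fell in DKO, by a log2 change of -0.46 ± 0.10 (adjusted p = 0.0349). At CT16 the 2 genotypes overlapped, at 83.5 to 104 CPM in control and 91.2 to 103 CPM in DKO, and the difference was 0.08 ± 0.08 (adjusted p = 0.609). The difference between the CT4 and CT16 genotype effects was 0.54 ± 0.13 (adjusted p = 0.104), which did not pass. Over time Cacna1d differed by -0.31 ± 0.09 in control (adjusted p = 0.0577) and 0.24 ± 0.09 in DKO (adjusted p = 0.185). The control time difference passed with DESeq2 (adjusted p = 0.0222), with the myelin and neighbouring nuclei scores as covariates (adjusted p = 0.0128) and without the 3 libraries that stand apart (adjusted p = 0.0174). The CT4 call was lost on leaving out control CT4 replicate 2 or 3 or any of the 3 DKO CT4 libraries (adjusted p = 0.104 to 0.191). Without control CT4 replicate 2, its highest library, it gave -0.35, adjusted p = 0.191. The CT4 call was kept without the 3 libraries that stand apart (-0.56 ± 0.09, adjusted p = 0.00492), where the neighbouring nuclei scores of the 2 genotypes do not overlap. The exons of Cacna1d share 526 bases with Chdh on the opposite strand (9.48 CPM), and the strand setting of the counting is not given in the sources used here.

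Cacna1c, the other main L-type gene, was the only 1 of the 61 to pass in the time comparison within DKO with edgeR on all libraries. It read 124, 121 and 117 CPM at CT4 and 155, 142, 140.1 and 141 CPM at CT16 in DKO, with no overlap, and rose by 0.26 ± 0.06 (adjusted p = 0.038). In control it stood at 133 to 141 CPM at CT4 and 115 to 141 CPM at CT16, a difference of -0.07 ± 0.06. The interaction was 0.33 ± 0.08 (adjusted p = 0.123). The call was lost on leaving out any CT4 library of either genotype, control CT16 replicate 3 or 4, or DKO CT16 replicate 1 or 2 (adjusted p = 0.0506 to 0.179). With the 2 scores as covariates it was 0.17 ± 0.06 (adjusted p = 0.262), which moves the value by over 1.5 times, and in the fit of the compared groups alone it gave 0.25, adjusted p = 0.128. The call was kept without the 3 libraries that stand apart (0.30 ± 0.07, adjusted p = 0.0212), where the neighbouring nuclei scores of DKO CT4 and DKO CT16 do not overlap. Between genotypes at CT16 Cacna1c differed by 0.16 ± 0.05, which did not pass (adjusted p = 0.0977). With the 2 scores as covariates that difference passed (0.17 ± 0.05, adjusted p = 0.0252).

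The 3 alpha1 genes of the presynaptic calcium channels were each abundant, at length-scaled means of 83.2 for Cacna1b (N-type), 80.8 for Cacna1e (R-type) and 68.7 for Cacna1a (P/Q-type). Their ranges over libraries overlapped, so their order is not set by these data. In DKO at CT4 all 3 lay below every control library. Cacna1a read 191, 215 and 195 CPM in control and 167, 165 and 163 CPM in DKO (-0.28 ± 0.07, adjusted p = 0.0621). Cacna1e read 380.1, 401 and 391 CPM in control and 327, 323 and 336 CPM in DKO (-0.25 ± 0.06, adjusted p = 0.0556), and Cacna1b differed by -0.05 ± 0.09. None of the 3 passed in this comparison. Cacna1a and Cacna1e did pass there with DESeq2, in the fit of the compared groups alone (-0.28 ± 0.05, adjusted p = 0.00902 and -0.25 ± 0.04, adjusted p = 0.00664) and without the 3 libraries that stand apart. Cacna1e also passed there with the 2 scores as covariates (-0.24 ± 0.06, adjusted p = 0.0307). At CT16 Cacna1a again lay below every control library, at 152 to 189.8 CPM in DKO and 192 to 214 CPM in control (-0.21 ± 0.06, adjusted p = 0.0549). It passed there with DESeq2 (-0.21 ± 0.06, adjusted p = 0.0222) and with the 2 scores as covariates (-0.18 ± 0.05, adjusted p = 0.0295).

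Over time in control, Cacna1e fell from 380.1, 401 and 391 CPM at CT4 to 347, 317, 311, 337 and 349 CPM at CT16 (-0.23 ± 0.05, adjusted p = 0.0217). The groups did not overlap. In DKO it differed by 0.08 ± 0.06, and the interaction was 0.31 ± 0.08 (adjusted p = 0.12). The call was lost without any 1 of the 3 control CT4 libraries or control CT16 replicate 3 (adjusted p = 0.053 to 0.104). The CT4 genotype and control time comparisons share the control CT4 libraries.

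T-type channels open near the resting potential and support rebound firing. Cacna1g held 59.3% of the length-scaled family total, Cacna1i 21.1% and Cacna1h 19.5%. Cacna1i (chromosome 15, 80287238 to 80398292) was lower in DKO at both times. At CT4 it read 124, 122 and 133 CPM in control and 94.3, 88 and 81.5 CPM in DKO, with no overlap (-0.52 ± 0.12, adjusted p = 0.0464). At CT16 it read 149, 121, 162, 157 and 158 CPM in control and 132, 114, 95.4 and 99 CPM in DKO (-0.44 ± 0.10, adjusted p = 0.0162). There the groups overlapped, since control replicate 2 lay below DKO replicate 1.

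The Cacna1i calls were not stable. The CT4 call was lost in 11 of 15 runs that left out 1 library (adjusted p = 0.0542 to 0.166), those without any CT4 library, control CT16 replicate 1, 3, 4 or 5, or DKO CT16 replicate 2, and with no filter on low counts (-0.52, adjusted p = 0.054). The CT16 call was lost without DKO CT16 replicate 4 (-0.39, adjusted p = 0.0697) and in the fit of the compared groups alone (-0.44, adjusted p = 0.0761). Without the 3 libraries that stand apart the CT16 difference was -0.28 ± 0.10 (adjusted p = 0.216), while the CT4 difference was -0.53 ± 0.11 (adjusted p = 0.0222). With the 2 scores as covariates both passed, at -0.39 ± 0.09 (adjusted p = 0.0326) and -0.40 ± 0.07 (adjusted p = 0.00182). The direction was lower in DKO in every one of the 23 alternatives, at each time.

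Cacna1g and Cacna1h ran with the neighbouring nuclei score in opposite ways. Cacna1g read 255, 350.0 and 321 CPM in control CT4 and 234, 229 and 208 CPM in DKO CT4 (-0.46 ± 0.17, adjusted p = 0.204). At CT16 it read 257 to 327 CPM in control, and in DKO 353, 368, 223 and 342 CPM. The lowest values were those of control CT4 replicate 1, all DKO CT4 libraries and DKO CT16 replicate 3, the libraries with the highest neighbouring nuclei scores. Without the 3 libraries that stand apart Cacna1g differed by -0.59 ± 0.09 at CT4 (adjusted p = 0.00315) and 0.35 ± 0.08 at CT16 (adjusted p = 0.0323). With the scores as covariates it differed by -0.15 ± 0.06 and 0.03 ± 0.05, neither past the test (adjusted p = 0.299 and 0.834). Over time in DKO Cacna1g differed by 0.52 ± 0.16, which did not pass (adjusted p = 0.106). It passed there with DESeq2 (0.52 ± 0.14, adjusted p = 0.0133) and without DKO CT16 replicate 3 (0.66 ± 0.10, adjusted p = 0.00202). It also passed there without the 3 libraries (0.69 ± 0.09, adjusted p = 0.000511), and did not with the scores as covariates. Cacna1h was highest in DKO CT16 replicate 3, in the order 80.9, 55.1, 131 and 52.7 CPM over the DKO CT16 libraries, and did not pass in any comparison. Its difference without the 3 libraries was 0.47 ± 0.24 at CT4 and -0.45 ± 0.22 at CT16.

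**Figure D3:**
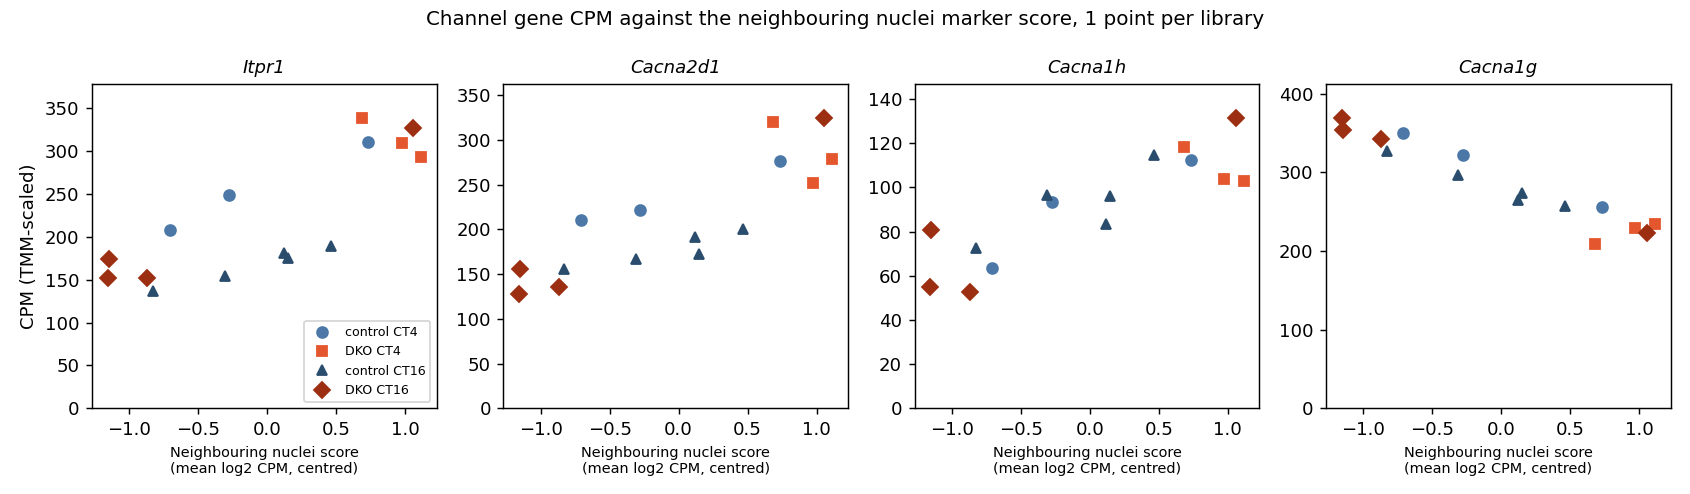
CPM per library against the neighbouring nuclei score (mean centred log2 CPM of 13 markers) for Itpr1, Cacna2d1, Cacna1h and Cacna1g, chosen after their values were seen, with 1 point for each of the 15 libraries, by group. Cacna1g is low and Itpr1 and Cacna2d1 are high in DKO CT16 replicate 3 (score 1.06) and in the DKO CT4 libraries (0.68 to 1.11).

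Auxiliary subunits set the surface level and gating of calcium channels. Among the alpha2delta subunits, Cacna2d2 held 51% of the length-scaled total, Cacna2d1 29% and Cacna2d3 18.9%. Cacna2d3 (chromosome 14, 28904943 to 29721864) fell over time in control, from 71.6, 96.5 and 85.1 CPM at CT4 to 55.9, 59.2, 57.8, 55.7 and 41.9 CPM at CT16, with no overlap (-0.64 ± 0.12, adjusted p = 0.00781). In DKO it stood at 68.6 to 73 CPM at CT4 and 58.5 to 77.7 CPM at CT16, a difference of -0.00 ± 0.12. Between genotypes at CT16 it was higher in DKO by 0.39 ± 0.11, which did not pass (adjusted p = 0.0576). DESeq2 called it there (0.38 ± 0.11, adjusted p = 0.0116), as did some runs that left out 1 library. The interaction was 0.64 ± 0.17 (adjusted p = 0.144) and did not pass. The control call was lost without control CT4 replicate 2 (-0.53, adjusted p = 0.0523) and kept in the other 22 alternatives. Cacna2d2 passed between genotypes at CT16 only with the 2 scores as covariates (-0.17 ± 0.04, adjusted p = 0.00912), and not in the main analysis.

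Cacna2d1, a binding site of gabapentin, was uneven within the DKO CT16 group. It read 156, 128, 324 and 136 CPM over the DKO CT16 libraries, and replicate 3 was more than 2-fold above the others there. No comparison passed with all libraries. Over time in DKO it differed by -0.61 ± 0.27 with all libraries and by -0.996 ± 0.13 without the 3 that stand apart (adjusted p = 0.00129).

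The beta subunits, which carry alpha1 subunits to the membrane, were led by Cacnb3 (40.2%) and Cacnb1 (32.2%). Cacnb1 lies 0.745 Mb from Nr1d1 on chromosome 11. It read 112, 107, 116, 123 and 114 CPM in control CT16 and 108, 87.6, 102 and 79.1 CPM in DKO CT16, with DKO replicate 4 lowest and replicate 1 within the control range (-0.28 ± 0.07, adjusted p = 0.0347). At CT4 it differed by -0.03 ± 0.09. The CT16 call was lost in 6 runs that left out 1 library, control CT16 replicate 1, 3, 4 or 5 or DKO CT16 replicate 2 or 4 (adjusted p = 0.062 to 0.129), without the 3 libraries that stand apart (-0.23 ± 0.07, adjusted p = 0.119) and in the fit of the compared groups alone (-0.28, adjusted p = 0.127). Cacnb3 differed by -0.30 ± 0.09 at CT16 (adjusted p = 0.0556), Cacnb2 by -0.13 ± 0.08 and Cacnb4 by 0.14 ± 0.05. Cacnb3 passed there with DESeq2 (-0.31 ± 0.09, adjusted p = 0.0156), with the stricter low-count filter and in some runs that left out 1 library. With the 2 scores as covariates Cacnb3 (-0.20 ± 0.06, adjusted p = 0.0427) and Cacnb4 (0.19 ± 0.04, adjusted p = 0.00908) passed.

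The gamma family holds several TARPs, which traffic AMPA receptors to synapses. Cacng4 is a TARP gene on chromosome 11 (107734780 to 107794464), 8.96 Mb from Nr1d1. At CT16 it read 31.4, 28.6, 29.6, 34.3 and 35.2 CPM in control and 23.8, 20.6, 23.3 and 22.7 CPM in DKO. Every DKO library lay below every control library (-0.49 ± 0.07, adjusted p = 0.000679), and the call was kept in all 23 alternatives, at -0.53 to -0.45. At CT4 the groups overlapped, at 25.3 to 28.6 CPM in control and 22.4 to 25.6 CPM in DKO, and the difference was -0.14 ± 0.09. The interaction was -0.35 ± 0.11 (adjusted p = 0.184).

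The other 5 gamma genes did not pass in either genotype comparison. At CT16 Cacng3 differed by -0.43 ± 0.16 and Cacng8 by -0.39 ± 0.11 (adjusted p = 0.0572), while Cacng2, which encodes stargazin, differed by 0.07 ± 0.07 and Cacng7 by -0.05 ± 0.07. Cacng8 passed there with DESeq2 (-0.39 ± 0.12, adjusted p = 0.0171) and without the 3 libraries that stand apart (-0.50 ± 0.12, adjusted p = 0.0424). Cacng3 passed without DKO CT16 replicate 1 (-0.60 ± 0.15, adjusted p = 0.0212). Cacng5, on chromosome 11 beside Cacng4, differed by -0.33 ± 0.13 at CT4 and -0.15 ± 0.11 at CT16.

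**Figure D4:**
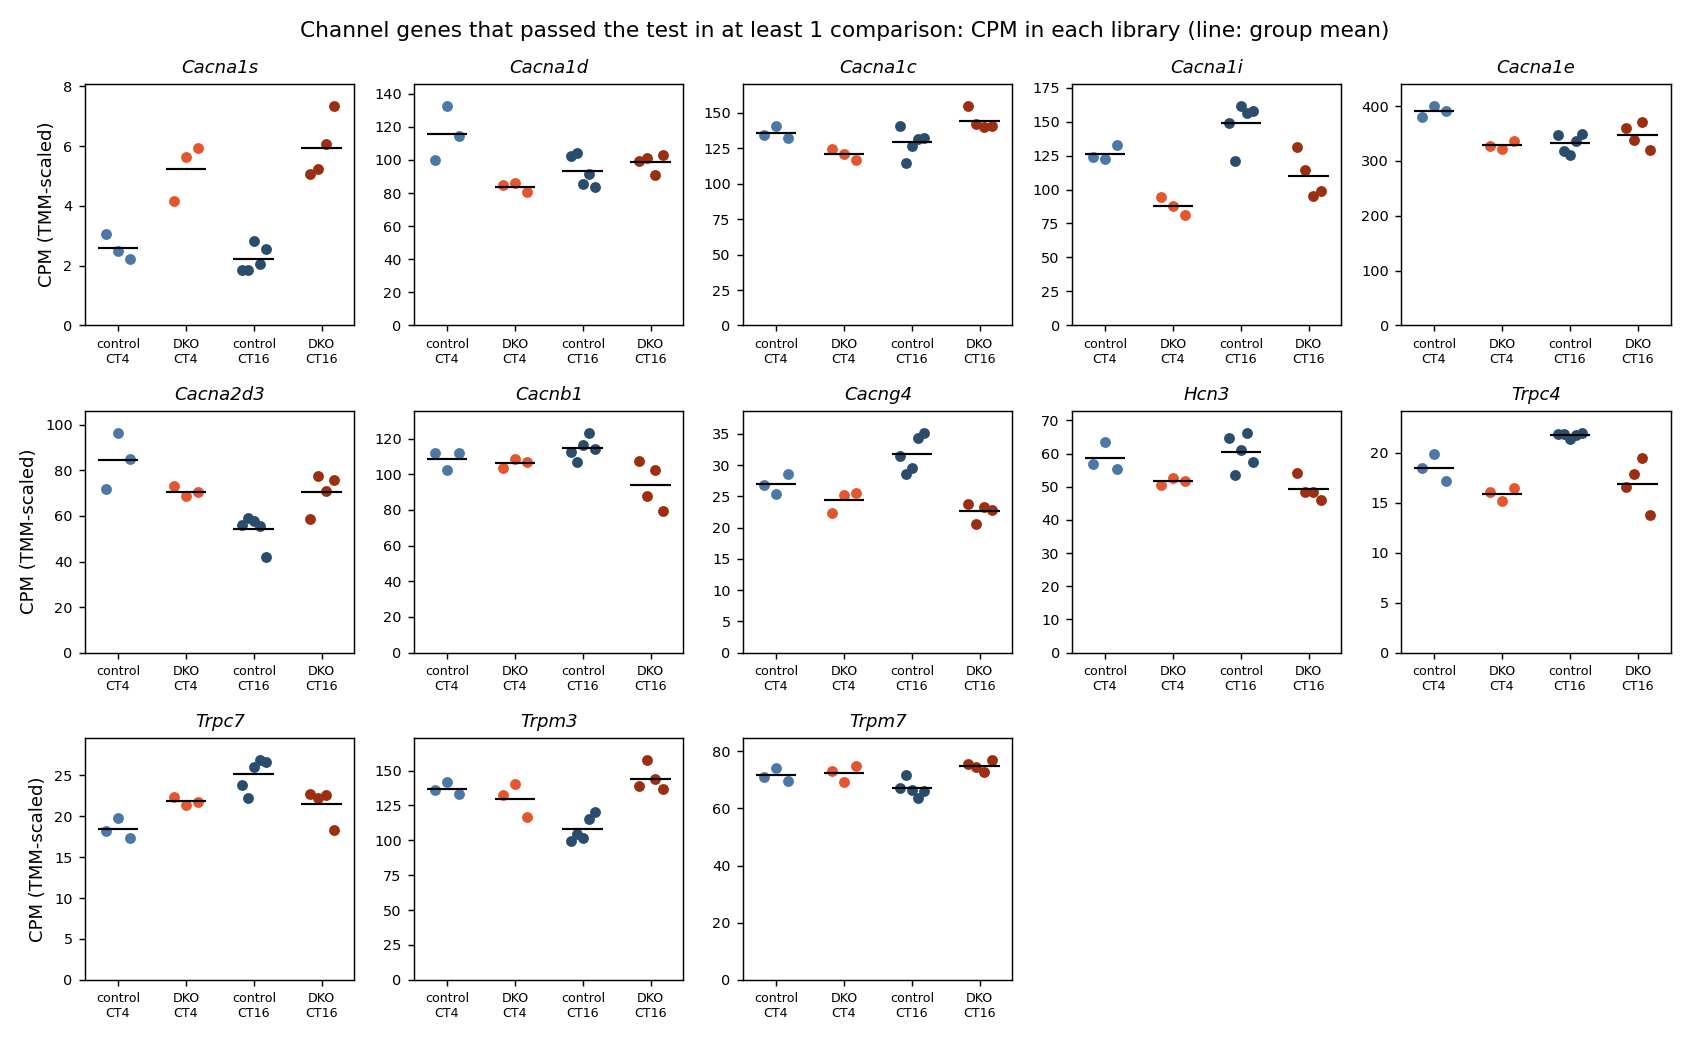
CPM in each library (y axes from 0) for the genes that passed in at least 1 comparison, by group. The 4 DKO CT16 libraries of Cacng4 (20.6 to 23.8 CPM) lie below the 5 control CT16 libraries (28.6 to 35.2 CPM), and those of Trpm3 (137 to 158 CPM) lie above them (99.5 to 120.4 CPM).

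Among TRP genes, Trpm3 had the smallest adjusted p between genotypes. TRPM3 is a heat- and steroid-activated cation channel, and Trpm3 held 37.5% of the length-scaled TRPM total, next to Trpm7 with 31.4%. Trpm3 lies on chromosome 19, 22139117 to 22989884 (plus strand). At CT16 it read 99.5, 105, 102, 115 and 120.4 CPM in control and 139, 158, 144 and 137 CPM in DKO. The groups did not overlap, and it rose in DKO by 0.41 ± 0.07 (adjusted p = 0.00114), a call kept in all 23 alternatives at 0.37 to 0.46. At CT4 the genotypes overlapped, with 136, 142 and 133 CPM in control and 132, 140.2 and 117 CPM in DKO (-0.08 ± 0.08).

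Over time in control, Trpm3 fell, by a log2 change of -0.34 ± 0.07 (adjusted p = 0.0127), and every CT16 library lay below every CT4 library. In DKO it differed by 0.15 ± 0.07 (adjusted p = 0.282). The CT16 genotype and control time comparisons share the control CT16 libraries, so they are not separate evidence. The interaction was 0.49 ± 0.10 (adjusted p = 0.0814), the smallest p of the 61 in that test, and did not pass. The control time call was lost without control CT4 replicate 1 or 2 (adjusted p = 0.0507 to 0.0743).

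Trpm7, a channel fused to a kinase that carries magnesium, differed little. At CT16 it read 67, 71.6, 66.5, 63.6 and 66 CPM in control and 75.4, 74.3, 72.7 and 76.9 CPM in DKO, with no overlap, and rose by 0.16 ± 0.04 (adjusted p = 0.0418). The call was lost in 16 of 23 alternatives. These include 11 of the 15 runs that left out 1 library (adjusted p = 0.0546 to 0.118), all but those without control CT4 replicate 2, DKO CT4 replicate 2, control CT16 replicate 2 or DKO CT16 replicate 3. Without the 3 libraries that stand apart it was 0.16 ± 0.06 (adjusted p = 0.174). At CT4 it differed by 0.02 ± 0.05. Trpm2 and Trpm4 did not pass in any comparison.

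Trpm7 was 1 of the 2 genes with CACGTG in a promoter window (RefSeq GRCm38.p6, chr2:126876212-126876511, minus strand), and the window is shown for that reason. It holds 2 matches, in capitals.
Trpm7: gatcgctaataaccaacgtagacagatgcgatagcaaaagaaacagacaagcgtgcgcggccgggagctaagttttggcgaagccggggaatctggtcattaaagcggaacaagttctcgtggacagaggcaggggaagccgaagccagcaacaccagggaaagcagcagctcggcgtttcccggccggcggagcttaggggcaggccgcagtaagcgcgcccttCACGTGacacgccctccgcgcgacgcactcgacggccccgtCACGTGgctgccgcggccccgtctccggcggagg
The matches are a description of the letters and were not tested for binding.

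The TRPC genes encode receptor-operated cation channels. Trpc5 (27.8%), Trpc1 (25%) and Trpc7 (20.4%) led their length-scaled total. Trpc4 (chromosome 3, 54156057 to 54318471) read 21.9, 21.9, 21.4, 21.8 and 22 CPM in control CT16, a narrow range, and 16.6, 17.9, 19.5 and 13.8 CPM in DKO CT16. The groups did not overlap, and it fell in DKO, by a log2 change of -0.36 ± 0.08 (adjusted p = 0.0157). At CT4 the groups did not overlap either, at 17.2 to 19.8 CPM in control and 15.2 to 16.5 CPM in DKO, but the difference of -0.22 ± 0.10 did not pass (adjusted p = 0.317). The CT16 call was lost in 1 alternative, the fit of the compared groups alone (-0.36, adjusted p = 0.0649).

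Trpc7 rose over time in control, from 18.2, 19.8 and 17.3 CPM at CT4 to 23.8, 22.2, 26.1, 26.9 and 26.7 CPM at CT16, with no overlap (0.45 ± 0.08, adjusted p = 0.00773). This call was kept in all 23 alternatives, at 0.37 to 0.50. In DKO it stood at 21.4 to 22.3 CPM at CT4 and 18.3 to 22.8 CPM at CT16 (-0.02 ± 0.09). The interaction was -0.47 ± 0.12 (adjusted p = 0.129). Its genotype difference was 0.24 ± 0.09 at CT4, where the groups did not overlap, and -0.23 ± 0.08 at CT16, and neither passed.

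Of the scarcer TRPC genes, Trpc6 lay lower in DKO at CT16 without overlap, at 5.58, 5.54, 5.56, 6.46 and 7.84 CPM in control and 4.12, 4.14, 4.82 and 4.52 CPM in DKO, but did not pass (-0.50 ± 0.16, adjusted p = 0.0869). DESeq2 called Trpc6 there (-0.50 ± 0.16, adjusted p = 0.0323). Trpc1 and Trpc5 did not pass in any comparison with all libraries, nor did Trpv2, Trpv4 and Trpv6. Leaving out DKO CT16 replicate 1 gave a CT16 genotype call for Trpc5 (-0.49 ± 0.13, adjusted p = 0.0328). Trpv2 made up 90.1% of the length-scaled TRPV total and ranged from 34.2 to 42.9 CPM over the 15 libraries. Trpc4ap lay between 220.4 and 242 CPM over all libraries.

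**Figure D5:**
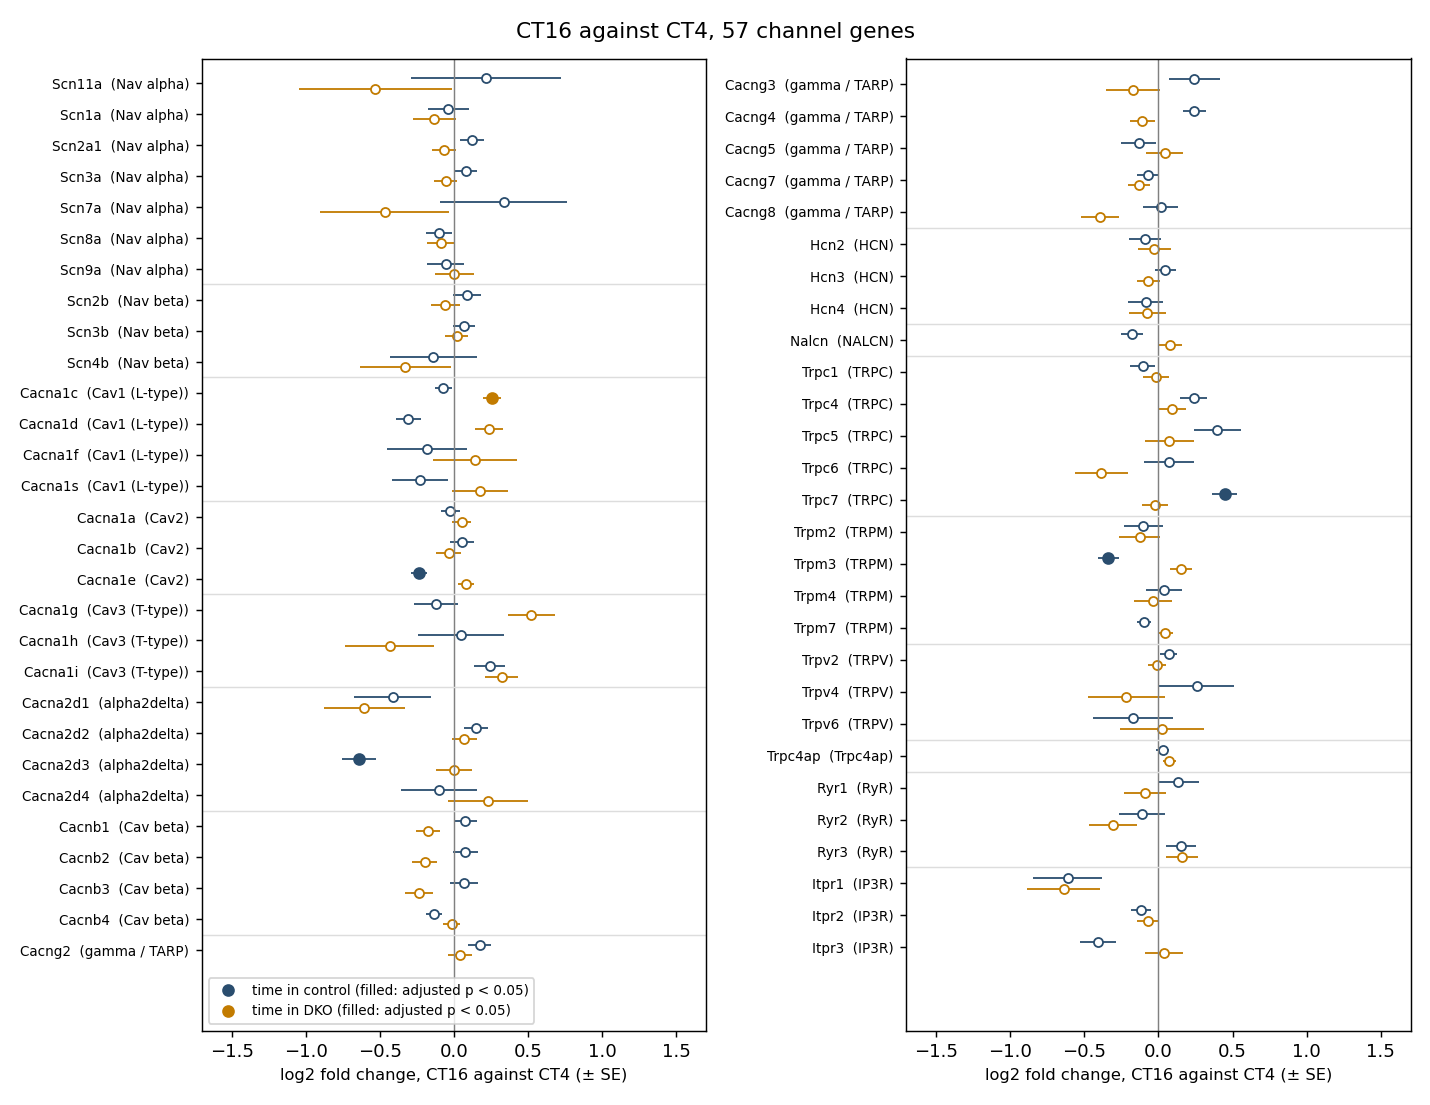
Log2 fold change of CT16 against CT4 (x axis, ± SE) for 57 of the 61 genes, in control and in DKO, ordered by family; filled points have an adjusted p under 0.05. Trpc7 is highest of the filled points, at 0.45 in control, and Cacna2d3 lowest, at -0.64 in control.

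HCN channels carry the depolarizing current that follows hyperpolarization. Hcn2 held 53.9% of the length-scaled total, Hcn3 27% and Hcn4 7.61%. Hcn3 (chromosome 3, 89146775 to 89160157) read 64.5, 53.4, 61, 66.2 and 57.4 CPM in control CT16 and 54.1, 48.3, 48.4 and 46.1 CPM in DKO CT16. The groups met only where control replicate 2 lay below DKO replicate 1, and Hcn3 fell in DKO, by a log2 change of -0.30 ± 0.07 (adjusted p = 0.0147). At CT4 it read 56.9, 63.5 and 55.4 CPM in control and 50.6, 52.6 and 51.6 CPM in DKO, with no overlap, and the difference of -0.18 ± 0.08 did not pass. The CT16 call was lost without DKO CT16 replicate 2 (-0.29, adjusted p = 0.0574), without the 3 libraries that stand apart (-0.24 ± 0.08, adjusted p = 0.161) and in the fit of the compared groups alone (-0.30, adjusted p = 0.0625). Hcn2 (-0.05 ± 0.12 at CT4, 0.01 ± 0.10 at CT16) and Hcn4 (-0.11 ± 0.13, -0.10 ± 0.11) did not pass.

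No sodium channel gene, of 8 alpha and 4 beta genes, passed in any of the 5 comparisons with edgeR or with DESeq2. An unadjusted p under 0.05 in at least 1 (edgeR) was reached by 5 of the 12, against 47.2% of all tested genes. Leaving out DKO CT16 replicate 1 gave calls at CT16 for Scn3a (-0.24 ± 0.07, adjusted p = 0.0393) and Scn3b (-0.27 ± 0.07, adjusted p = 0.0303), and Scn3b also passed without control CT16 replicate 2. Scn2a, listed under its older symbol Scn2a1, held 36.4% of the length-scaled alpha total, Scn1a 17.4%, Scn8a 16.4% and Scn3a 12.9%. These are the main brain forms, and their genotype differences at CT4 were 0.03 ± 0.09, 0.07 ± 0.15, -0.00 ± 0.10 and -0.04 ± 0.08. At CT16 they were -0.16 ± 0.07, -0.02 ± 0.13, 0.01 ± 0.08 and -0.18 ± 0.07. DKO CT16 replicate 4, the library with the highest myelin score and the lowest neuronal score (-0.32), was lowest of its group for Scn1a (170.2, 161, 163 and 104 CPM), Scn8a (215, 205, 208 and 156 CPM) and Scn2a1 (365, 303, 348 and 274 CPM). Their CT16 differences without the 3 libraries that stand apart were 0.12 ± 0.10, 0.11 ± 0.07 and -0.11 ± 0.07, in that order, and none passed.

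At CT4, Scn7a was higher and Scn9a lower in DKO without overlap. Scn7a, a sodium-sensing channel of glia and circumventricular organs, read 22.4, 15.5 and 17.2 CPM in control and 28.5, 29 and 31.1 CPM in DKO (0.68 ± 0.47, adjusted p = 0.551). Its highest library was control CT16 replicate 5. Scn9a read 92.2 to 114 CPM in control and 73.6 to 81 CPM in DKO (-0.35 ± 0.14), and its exons share 319 bases with the opposite-strand gene Gm13629. In the fit of the compared groups alone, with 6 libraries, both passed, Scn7a at 0.68 ± 0.12, adjusted p = 0.0104, and Scn9a at -0.36 ± 0.08, adjusted p = 0.0294. That fit called 5.12% of all genes at CT4, against 1.28% with all libraries.

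The Scn1a window (RefSeq GRCm38.p6, chr2:66440788-66441087, minus strand) is shown as the only 1 of 58 with the D-box or TAGGTCA. TTATGTAA and TAGGTCA are in capitals.
Scn1a: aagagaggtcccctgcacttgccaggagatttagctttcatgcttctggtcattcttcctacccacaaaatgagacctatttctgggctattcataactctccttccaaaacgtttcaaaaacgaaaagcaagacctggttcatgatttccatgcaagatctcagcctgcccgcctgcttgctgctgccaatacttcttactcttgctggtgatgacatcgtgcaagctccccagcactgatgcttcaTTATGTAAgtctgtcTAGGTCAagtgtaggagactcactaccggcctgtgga
Scn1a itself stayed between 104 and 176 CPM in all libraries, and its differences between CT4 and CT16 were -0.04 ± 0.14 in control and -0.13 ± 0.14 in DKO.

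Nalcn, which sets the resting sodium leak, was abundant, at a length-scaled mean of 108. At CT4 it read 261, 339.7 and 279 CPM in control and 258, 234 and 227 CPM in DKO. The groups did not overlap, and the difference of -0.29 ± 0.09 did not pass (adjusted p = 0.108). At CT16 they overlapped (-0.04 ± 0.07). Without the 3 libraries that stand apart the CT4 difference passed, at -0.37 ± 0.07 (adjusted p = 0.0128), and with the 2 scores as covariates it was -0.16 ± 0.07 (adjusted p = 0.314).

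Of the 6 store release channel genes, 0 passed in any comparison with edgeR on all libraries, 4 had an unadjusted p under 0.05 in at least 1 (47.2% of all tested genes did), and DESeq2 called 1, Itpr3, over time in control. Itpr1 held 82% of the length-scaled IP3 receptor total, and Ryr2 (57%) and Ryr3 (37.7%) most of the ryanodine receptor total, with Ryr1, the muscle form, at 5.29%. Itpr1 was uneven within groups: it read 311, 208 and 249 CPM in control CT4, 293, 310.0 and 338 CPM in DKO CT4 and 174, 152, 327 and 152 CPM in DKO CT16. Its high libraries were again those with high neighbouring nuclei scores. Its time differences were -0.61 ± 0.23 in control and -0.64 ± 0.25 in DKO. Leaving out the 3 libraries that stand apart gave -0.45 ± 0.12 (adjusted p = 0.0696) and -0.94 ± 0.14 (adjusted p = 0.00321), the latter past the test. With the 2 scores as covariates the control difference passed (-0.64 ± 0.08, adjusted p = 0.000296), and so did the CT16 genotype difference (0.42 ± 0.08, adjusted p = 0.00461). Ryr3 lay lower in DKO at CT4 without overlap, at 106, 109 and 113 CPM in control and 92.2, 91.7 and 92.1 CPM in DKO (-0.25 ± 0.11, adjusted p = 0.317). It passed there in the fit of the compared groups alone (-0.25 ± 0.05, adjusted p = 0.0104), at CT16 with the 2 scores as covariates (-0.21 ± 0.05, adjusted p = 0.0255), and over time in DKO without the 3 libraries (0.34 ± 0.08, adjusted p = 0.0202). Leaving out DKO CT16 replicate 1 gave CT16 calls for Ryr3 (-0.34 ± 0.09, adjusted p = 0.0355) and Ryr1 (-0.46 ± 0.12, adjusted p = 0.0276). Itpr2 (-0.15 ± 0.07) and Itpr3 (-0.35 ± 0.14) also lay lower in DKO at CT4 without overlap. Over time in control Itpr3 passed with the 2 scores as covariates (-0.47 ± 0.12, adjusted p = 0.0166).

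No channel gene passed the test of whether the genotype effect differed between CT4 and CT16 (edgeR quasi-likelihood test, 0 of 61, background 0.0118%, 2 of 16910 genes). At an unadjusted p under 0.05 there were 15 of 61, against 15.1% of all tested genes. DESeq2 called 6, against 2.55% of the genes it gave an adjusted p: Cacna1c, Cacna1d, Cacna1e, Cacna2d3 and Trpm3, with the DKO minus control difference higher at CT16, and Trpc7, with it lower at CT16. Without the 3 libraries that stand apart edgeR called 5, against 2.49% of all tested genes, Cacna1d, Cacna1e, Cacna1g, Nalcn and Trpm3, and Cacna1g had the largest value (0.93 ± 0.12, adjusted p = 0.00289). The time comparisons by overlap gave 8 of 61 genes in control and 4 of 61 in DKO, against 15.8% and 14.7% of all tested genes.

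Proteins that bind or regulate these channels were counted in the same fit, from lists of partners of NALCN, sodium, calcium, HCN, TRP and store channels with 50 tested genes. Between genotypes 0 of them passed at CT4 with edgeR. There 8 of the 50 had an unadjusted p under 0.05, against 14.8% of all tested genes, and DESeq2 called 1, Stac3. At CT16, 2 of the 50 rose and 0 fell, a share close to the 4.66% of all tested genes called. Stac, whose protein family binds L-type channels, read 6.39, 5.89, 5.52, 5.04 and 6.06 CPM in control CT16 and 12.1, 13.2, 7.0 and 14.5 CPM in DKO CT16 (1.02 ± 0.17, adjusted p = 0.00238). DKO replicate 3 was the lowest of its group, though still above the controls. At CT4 Stac differed by 0.60 ± 0.22. The other members of the family did not pass between genotypes with edgeR. Stac3 differed by -0.72 ± 0.18 at CT4 (adjusted p = 0.0618, no overlap) and -0.06 ± 0.14 at CT16. Stac2 differed by -0.10 ± 0.21 and -0.47 ± 0.17. Atp2a3, an endoplasmic calcium pump, rose by 0.44 ± 0.08 at CT16 (adjusted p = 0.00535).

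Over time in control 2 of the 50 partner genes rose and 1 fell, against 2.13% and 2.08% of all tested genes. Rrad, a small GTPase that inhibits voltage-gated calcium channels, read 8.10, 6.0 and 8.01 CPM at CT4 and 26.3, 17.1, 21.5, 25.4 and 36.2 CPM at CT16 (1.78 ± 0.25, adjusted p = 0.00181). Gem, of the same family, rose by 0.81 ± 0.16 (adjusted p = 0.0108), and Atp2a3 fell, by a log2 change of -0.74 ± 0.09 (adjusted p = 0.000291). In DKO, Stac rose by 0.89 ± 0.20 over time (adjusted p = 0.0369) and Jph4, a junctophilin, fell, by a log2 change of -0.25 ± 0.05 (adjusted p = 0.0279), against 1.29% of all tested genes higher and 0.509% lower.

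Of the 71 markers of cell types and neighbouring nuclei, 0 passed between genotypes at CT4, where 1.28% of all tested genes did. The median of the 11 SCN markers there was -0.92, as given above. At CT16, 4 of the 71 passed between genotypes, where 4.66% of all tested genes did. The astrocyte genes Gja1 (0.32 ± 0.07) and Aldh1l1 (-0.35 ± 0.06) went in opposite directions, and the ependymal and choroid plexus genes Tmem212 (0.56 ± 0.14) and Folr1 (1.34 ± 0.36) rose. The 6 ependymal and choroid plexus markers summed to 76.1 to 104.0 CPM in control CT16 and 85.9 to 129 CPM in DKO CT16. Over time in control, 7 of the 71 passed (background 4.21%). The vascular genes Cldn5, Kdr and Pdgfrb, the microglial genes P2ry12 and Cx3cr1 and the SCN marker Six6 (-0.99 ± 0.25) fell, and the neighbouring nuclei marker Crh (4.31 ± 1.11) rose. Over time in DKO, Cldn5, Kdr, P2ry12 and Cx3cr1 fell (4 of 71, background 1.80%). The 7 vascular markers summed to 166 to 188 CPM at CT4 and 118 to 144 CPM at CT16 in control. In DKO they summed to 149 to 153 CPM at CT4 and 124 to 137 CPM at CT16. The part of these cells in the channel results was not tested.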

How the data were processed

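Total RNA of SCN punches was sequenced in 15 libraries. The authors deposited raw read counts per gene, whole numbers without normalization. Tools listed in the submitters' processing notes are STAR, featureCounts and DESeq2, with mm10 as the build. For versions, annotation and strand setting the sources used here give nothing.

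The tests were run with edgeR 4.0.16 in R 4.3.3. There filterByExpr left 16910 genes, TMM factors were computed, and 1 model of 4 group means (11 residual degrees of freedom) was fitted to all libraries with the robust quasi-likelihood test. A gene counts as called where its p, adjusted over all tested genes by Benjamini-Hochberg, is under 0.05. Each SE is the size of the log2 change over the root of its F statistic. Library sizes in CPM include the TMM factors, and scores use log2 CPM with a prior count of 2. Exonic lengths in the deposited table were used to scale levels.

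Genes named are those called in any comparison, a fixed set of pacemaker channels, the 4 smallest p and 2 largest changes per comparison, and the most abundant gene of each family; others are named for overlap, overlapping exons or low level after their values were seen. Of the 61 genes, 4 are not reported here by name. The members and lists were chosen with earlier results of these data known. Alternatives were RLE factors, DESeq2 1.42.0, no and a stricter low-count filter, the compared groups alone, a replicate block, 2 marker scores as covariates, exclusion of 3 libraries, and each library left out. The fit was tested on simulated counts. Figures used matplotlib 3.10.9.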

Additional observations from a re-analysis of the deposited data

Results flagged for a closer look

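In these genes 1 library stood apart from the rest of its group by Dixon's test, which flags about 1 in 20 groups by chance. In DKO CT16, replicate 3 was high for Cacna2d1 at 324 CPM (next highest 156), for Itpr1 at 327 CPM (next 174) and for Scn7a at 31 CPM (next 18.4). On the neighbouring nuclei score this library stood at 1.06 and the rest of its group at -1.16 to -0.87. Replicate 4 of DKO CT16 was low for Scn1a at 104 CPM (next lowest 161), for Scn8a at 156 CPM (next 205) and for Trpc7 at 18.3 CPM (next 22.2), and had the highest myelin score, 1.61. Replicate 1 of DKO CT16 was high for Cacna1c at 155 CPM (next 142). In control CT16, replicate 5 was high for Scn7a at 53.3 CPM (next 18.4) and low for Cacna2d3 at 41.9 CPM (next 55.7), and replicate 1 was high for Cacna1a at 214 CPM (next 194).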

How the results depend on the processing

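Direction was the same in all alternatives for each of the 16 calls. Those kept throughout were Cacna1s, Cacng4 and Trpm3 between genotypes at CT16 and Trpc7 over time in control. In the order genotype at CT4, genotype at CT16, time in control, time in DKO and interaction, the calls in the main analysis numbered 3, 8, 4, 1 and 0. The share of all tested genes called is given in brackets in the same order. DESeq2 gave 6, 13, 6, 2 and 6 (3.69, 8.02, 8.03, 5.63 and 2.55%, of genes with an adjusted p). The fit of the compared groups alone gave 9, 3, 5 and 0 for the first 4 (5.12, 2.24, 5.38 and 0.287%). With the marker scores as covariates the counts were 3, 14, 9, 0 and 0 (1.49, 5.99, 7.68, 1.16 and 0.213%). Without control CT4 replicate 1 and DKO CT16 replicates 3 and 4 they were 7, 6, 6, 8 and 5 (3.57, 2.47, 3.59, 6.98 and 2.49%).

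Leaving out 1 library gave 0 to 5 calls for genotype at CT4 (0 without control CT4 replicate 2 or 3 or DKO CT4 replicate 2 or 3, 1 without DKO CT4 replicate 1, 5 without DKO CT16 replicate 3 or 4). It gave 5 to 17 for genotype at CT16 (5 without DKO CT16 replicate 2 or 4, 13 without control CT16 replicate 2, 17 without DKO CT16 replicate 1, where 7.83% of all genes were called). For time in control it gave 1 to 6 (1 without control CT4 replicate 2). It gave 0 to 7 for time in DKO (7 without DKO CT16 replicate 3, with 8.68% of all genes) and 0 to 3 for the interaction (3 without DKO CT16 replicate 3, with 1.77%). The cause of these shifts was not tested.

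Replicate numbers did not pair the libraries: over 19 same-numbered pairs the deviations from group means correlated at -0.184 to 0.1472, and 3 of 15 libraries matched best with their own number. With the replicate number as a block the counts were 1, 5, 3, 0 and 0 (0.615, 2.97, 2.24, 0.94 and 0.00591%). The calls absent there were Cacna1s at CT4, Cacna1i at CT4 and CT16, Cacnb1 and Trpm7 at CT16, Cacna1e over time in control and Cacna1c over time in DKO.

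Genes of low count, such as Scn11a and Cacna1f, carry SEs too wide for small differences to be detectable in these libraries. Scn11a also varied within groups, at 2.04, 0.41 and 0.87 CPM in the control CT4 libraries.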
